A study of Rattus norvegicus with 9 samples.

Results

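Genes that mark subsets and activation states of synovial fibroblasts were followed across rat knee tissue, 10 genes out of 17602 in the deposited table, found by their symbols. They were Prg4 and Clic5 for the lining layer, Pi16, Dpp4 and Cd34 for the fibroblasts around vessels and in the adventitia, Thy1 for the sublining, Pdpn, Fap and Lrrc15 for activated fibroblasts, and Myoc. Myoc was chosen by its measured change, as the gene with the largest fall in pMx versus sham, and its values are therefore a description with no test. Lrrc15 was already known as one of the largest rises in sham versus intact, so its differences from the intact group are also given with no test. The other 8 genes were selected from general knowledge of fibroblast markers, with earlier results of these data known.
The intact group was synovium from around the medial meniscus of rat knees without surgery. Synovium of the sham group was taken at that site as well, 1 week after opening and closing of the joint capsule. The pMx group, named for partial medial meniscectomy, was the tissue regenerating 1 week after that operation, in which the anterior part of the medial meniscus had been removed, and the synovium around that tissue had been trimmed away. All rats were wild-type male Lewis rats, 10 to 12 weeks of age per the study's methods, with 3 libraries in each group, and no source used here says how many knees or rats went into a library. Sham and pMx were separate groups, both taken at 1 week, so a rise or fall below compares groups and not times. Between pMx and sham, the operation and the kind of tissue taken changed together and cannot be told apart. RNA integrity in the study's quality table also differed between the groups without overlap, lowest in the intact and highest in the pMx samples, and cannot be told apart from them in libraries made by oligo-dT capture.

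Synovium is made of a thin lining over a looser sublining, and fibroblasts are the main structural cells of both. Lining fibroblasts face the joint space and make lubricin, the product of Prg4. Sublining fibroblasts sit in collagen-rich tissue among vessels, fat and nerves, and a Pi16 and Dpp4 population around vessels is widely regarded as a reserve from which other fibroblasts can arise. After injury, fibroblasts can enter an activated state in which they divide, lay down matrix and display surface proteins such as podoplanin (Pdpn), fibroblast activation protein (Fap) and Lrrc15. In a bulk sample, fewer cells of a type and less RNA per cell cannot be told apart, which holds for every level below.

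Promoter sequences are shown for the members with the largest rise and the largest falls among the 9 of 10 members with a promoter sequence in the RefSeq table of the GRCr8 build, which are all members other than Thy1. Each run is the 250 bases before the annotated start, 5′ to 3′ on the strand of the gene, and capitals mark a motif that was searched for. The regions were chr11:83974458-83974707 on the plus strand for Lrrc15, chr9:24310965-24311214 on the minus strand for Clic5 and chr13:77509713-77509962 on the plus strand for Myoc.
Lrrc15: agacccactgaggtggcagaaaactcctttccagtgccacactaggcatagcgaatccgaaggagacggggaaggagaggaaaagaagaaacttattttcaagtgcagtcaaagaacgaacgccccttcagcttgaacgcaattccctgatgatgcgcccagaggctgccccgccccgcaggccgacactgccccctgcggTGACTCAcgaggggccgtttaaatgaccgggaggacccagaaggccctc
Clic5: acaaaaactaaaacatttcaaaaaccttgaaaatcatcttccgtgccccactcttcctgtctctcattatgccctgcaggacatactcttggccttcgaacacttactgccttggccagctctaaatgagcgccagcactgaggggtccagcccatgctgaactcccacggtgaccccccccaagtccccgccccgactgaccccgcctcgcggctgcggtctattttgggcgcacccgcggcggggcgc
Myoc: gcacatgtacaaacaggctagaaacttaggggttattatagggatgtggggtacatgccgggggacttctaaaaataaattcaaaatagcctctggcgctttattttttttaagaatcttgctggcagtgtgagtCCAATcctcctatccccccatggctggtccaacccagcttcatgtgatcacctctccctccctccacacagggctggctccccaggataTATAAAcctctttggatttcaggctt
The motifs searched were TATAAA for the TATA box, CCAAT for the box of that name, TGANTCA for AP-1, GGAATG for TEAD and TGTGGT for RUNX factors, each on both strands, and no matches overlapped in the members. The Lrrc15 promoter held an AP-1 match 49 bases before the start, a motif found in 6.34% of 33469 promoters of the same length. The Myoc promoter held a TATA match 26 bases and a CCAAT match 115 bases before the start, motifs found in 12.9% and 34.0% of promoters. Prg4 had both of the last motifs as well, Dpp4 had a CCAAT match, and the windows of Clic5, Pi16, Cd34, Pdpn and Fap held none of the 5. TEAD and RUNX matches, which 12.1% and 14.5% of promoters held, were found in none of the 9 windows. A match of letters is a description and not evidence of binding.

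Levels are given in TPM, a measure scaled by transcript length to the same total in every library, so the depth of the libraries is unknown and precision rests on the 3 replicates. Of the 17602 genes, 16512 were above 0 TPM in at least 3 libraries and were tested with limma on log2(TPM + 1), and all 10 members passed this filter. A gene was called when its adjusted p was below 0.05 and its absolute log2 fold change above 1, and SE stands for the standard error of a fold change. Within groups, libraries correlated at 0.954 to 0.996 across genes, and no library pair was identical. Intact replicate 3 stood apart from its group, with 42445 TPM over 10 skeletal muscle genes against 58.1 and 196 TPM in intact replicates 1 and 2. Sham versus intact and pMx versus intact results are therefore given without it where it matters.

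**Figure D1:**
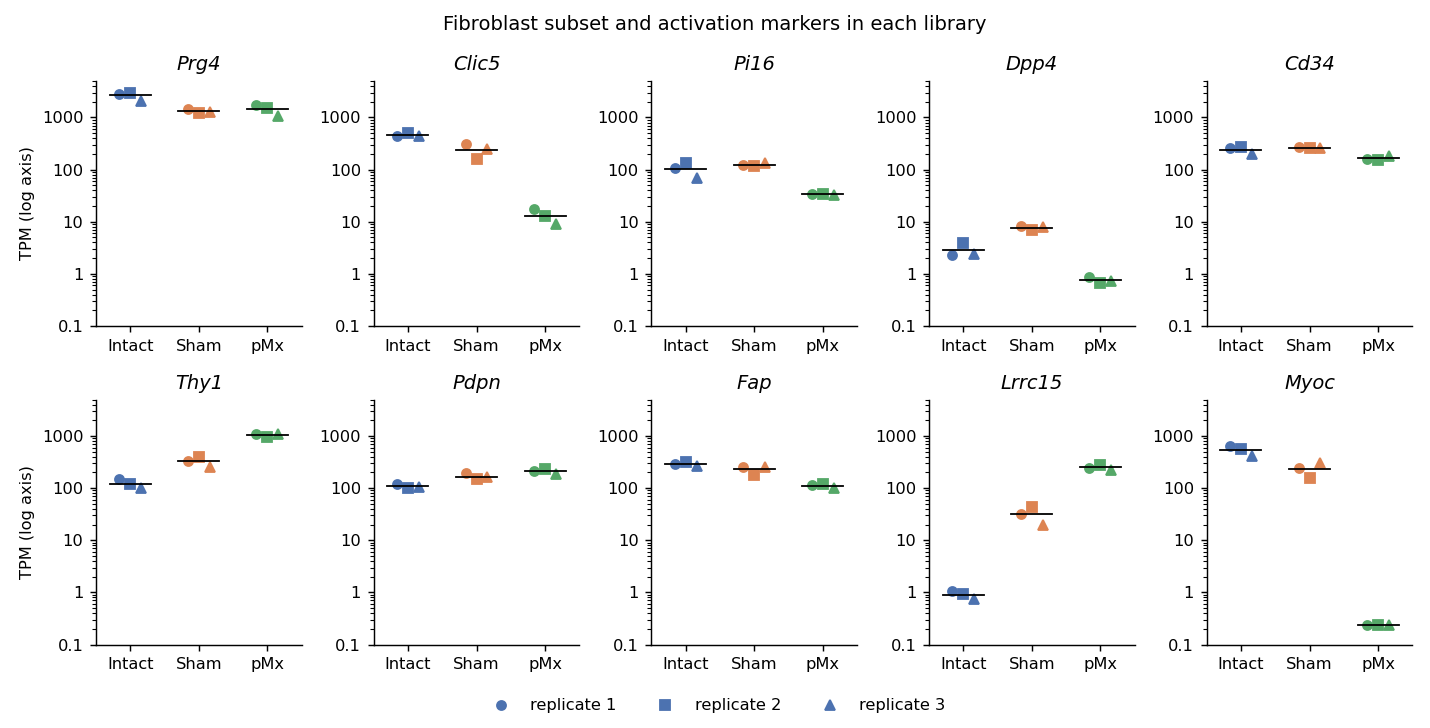
TPM of each marker (log axis) in the 9 libraries of the intact, sham and pMx groups, with circles, squares and triangles for replicates 1, 2 and 3 and a bar at the group mean. Clic5 and Myoc were lowest in the pMx group, at means of 13.1 and 0.24 TPM, whereas Thy1 and Lrrc15 were highest there, at 1037 and 249 TPM.

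Across the 9 members that could be tested in pMx versus sham, 6 were called, Thy1 and Lrrc15 higher and Clic5, Pi16, Dpp4 and Fap lower in the pMx group. Among all genes tested, 8.21% were called, 3.36% higher and 4.85% lower. The TPM ranges of the groups did not overlap for 7 of the 9, against 56.1% of all genes tested. Between sham and intact, 2 of 8 were called, Dpp4 and Thy1, both higher in the sham group, where 1.96% of all genes were called, 1.42% higher and 0.533% lower. The ranges did not overlap for 6 of these 8, against 30.6% of all genes. No member was called lower in limma in that comparison, while 3 had lower values at an unadjusted p below 0.05. In pMx versus intact, 5 of 8 were called, Thy1 higher and Clic5, Pi16, Dpp4 and Fap lower, where 14.3% of all genes were called, 6.40% higher and 7.89% lower. The ranges of all 8 were apart, against 57.5% of all genes. The first 2 comparisons share the sham libraries, so their values stand side by side and are not evidence for each other.

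**Figure D2:**
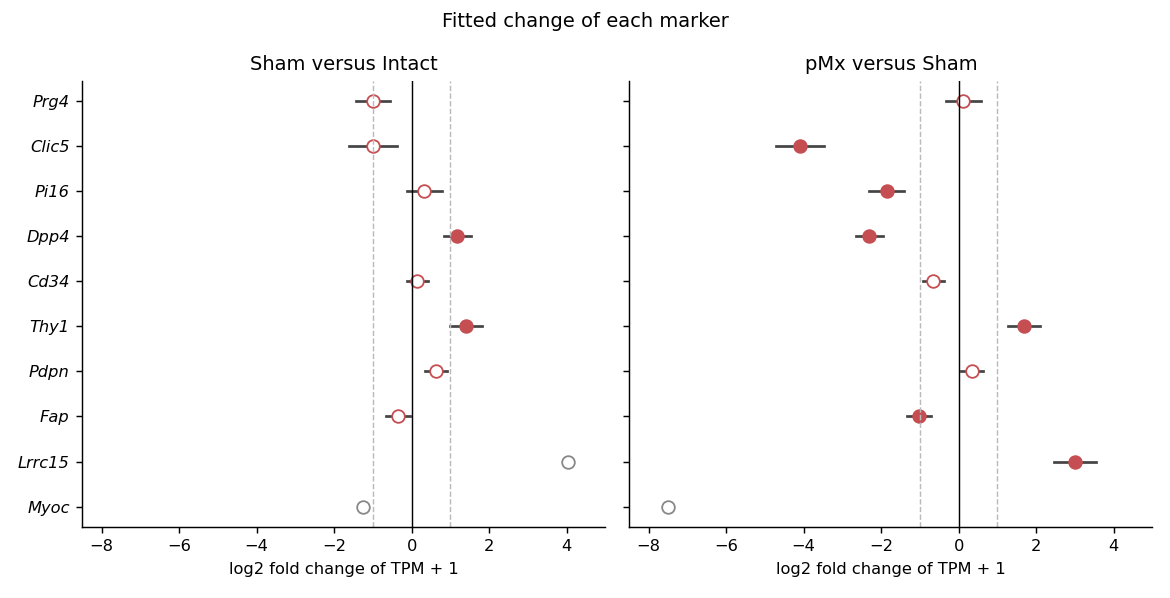
Fitted log2 fold change of TPM + 1 for each marker in sham versus intact and pMx versus sham, with 95% confidence intervals for the tested markers, filled points for called genes, gray open points for values given without a test and dashed lines at the fold-change threshold. Lrrc15 lay furthest to the right in both panels (4.03 and 3.01), and Myoc furthest to the left (-1.26 and -7.50).

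Of the lining markers, Clic5 fell in pMx versus sham and Prg4 was not called. Prg4 (gene identifier 289104) encodes lubricin, the lubricant of the joint surface. Intact replicates 1, 2 and 3 held 2851.58, 2986.46 and 2099.95 TPM, sham replicates 1450.96, 1244.64 and 1248.09 TPM, and pMx replicates 1737.63, 1537.09 and 1084.36 TPM. All sham and pMx libraries lay below all intact libraries, and the sham and pMx ranges overlapped. The log2 fold change of sham versus intact was -0.995 (SE 0.20, limma adjusted p = 0.0170), a fraction short of the threshold, and without intact replicate 3 it was -1.15 and passed it. In pMx versus sham it was 0.12 (95% confidence interval -0.33 to 0.57, limma adjusted p = 0.680). Prg4 had the highest level of the 10 markers in every group.
Clic5 (gene identifier 94272) encodes a chloride intracellular channel protein that is used as a marker of lining fibroblasts. Intact libraries held 448.42, 502.78 and 436.02 TPM, sham libraries 308.02, 156.9 and 253.14 TPM, and pMx libraries 17.25, 13.08 and 8.86 TPM. The 3 groups did not overlap, and the highest pMx library stood far below the lowest sham library. Clic5 fell from a sham mean of 239 ± 76.5 TPM to a pMx mean of 13.1 ± 4.20 TPM (± SD, n = 3 per group), 18.3-fold lower by the group means, with a log2 fold change of -4.09 (SE 0.27, limma adjusted p = 3.06e-05). Sham versus intact gave -0.999 (limma adjusted p = 0.0476), just under the fold-change threshold. Against the intact group, the pMx mean was 35.4-fold lower.
For the gene lists below, the shares of all genes tested called in pMx versus sham were 3.36% higher and 4.85% lower. They were 1.42% and 0.533% in sham versus intact, and 6.40% and 7.89% in pMx versus intact. The other genes of a lining list gave further values. In pMx versus sham, 5 of 8 were called lower and 0 higher by limma (no gene was higher at an unadjusted p below 0.05), with a median log2 fold change of -1.01 against -0.01 for all genes tested. Htra4, a serine protease gene of the lining, fell most, from 755 ± 179 to 82.3 ± 23.1 TPM (± SD, n = 3 per group; fold change on the log2 scale -3.19), followed by the adhesion molecule gene Vcam1, from 115 ± 13.1 to 34.8 ± 7.16 TPM (± SD, n = 3 per group; -1.70). Hbegf and Cd55 passed the fold-change threshold by a small margin (-1.001 and -1.02), and the count was 3 of 8 without sham replicate 1 or pMx replicate 3. In sham versus intact, 0 of the 8 were called in either direction, with 6 lower and 0 higher at an unadjusted p below 0.05 (median -0.48).

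The adventitial markers were lower in the pMx group than in the sham group, each by a different amount. Pi16 (gene identifier 294312) encodes a secreted peptidase inhibitor. Intact libraries held 105.74, 132.56 and 68.25 TPM, sham libraries 122.56, 116.46 and 132.86 TPM, and pMx libraries 33.46, 34.67 and 32.23 TPM. The pMx libraries lay close together and below all others, while the intact and sham ranges overlapped. For pMx versus sham the log2 fold change was -1.86 (SE 0.20, limma adjusted p = 2.22e-04), and for sham versus intact 0.33 (95% confidence interval -0.13 to 0.78, limma adjusted p = 0.329). The latter was 0.06 without intact replicate 3.
Dpp4 (gene identifier 25253) encodes dipeptidyl peptidase 4, a membrane protease that trims chemokines such as Cxcl12. Intact libraries held 2.3, 3.91 and 2.43 TPM, sham libraries 8.13, 6.98 and 7.86 TPM, and pMx libraries 0.86, 0.66 and 0.72 TPM. It was the one tested member called in opposite directions in these comparisons, with every sham library above every intact library and every pMx library below both. Dpp4 was higher in sham than in intact synovium by a log2 fold change of 1.18 (SE 0.15, limma adjusted p = 0.00499). In pMx versus sham it fell, with a sham mean of 7.66 ± 0.601 TPM and a pMx mean of 0.747 ± 0.103 TPM (± SD, n = 3 per group; fold change on the log2 scale -2.31, SE 0.15, limma adjusted p = 3.10e-05). Since the pMx values lie below 1 TPM, the pseudocount understates this fall, and with a pseudocount of 0.01 it was -3.35. The fall of pMx versus intact (-1.13) missed the fold-change threshold without intact replicate 2 (-0.95).
Cd34 (gene identifier 305081) encodes a surface sialomucin of adventitial fibroblasts and also of blood vessel endothelium. Intact libraries held 254.59, 268.96 and 195.63 TPM, sham libraries 267.42, 263.62 and 256.71 TPM, and pMx libraries 162.77, 155.56 and 182.8 TPM. Every pMx library was below every other library, and sham lay within the intact range. The difference of pMx from sham was -0.65 on the log2 scale (SE 0.12, limma adjusted p = 0.00270), short of the fold-change threshold, and sham differed from intact by 0.14 (95% confidence interval -0.12 to 0.41). In a list of 10 blood endothelial genes, 0 were called in pMx versus sham by limma, with 2 higher and 3 lower at an unadjusted p below 0.05. In sham versus intact 0 were called by limma, with 0 higher and 9 lower at an unadjusted p below 0.05. In pMx versus intact 3 were called lower and 0 higher (median log2 fold change -0.54). Their summed level was 1067 to 1393 TPM in the intact, 899 to 966 TPM in the sham and 756 to 954 TPM in the pMx libraries. How much of the Cd34 signal came from endothelium was not tested.
Of 9 further adventitial genes in the table, 6 were called lower and 0 higher in pMx versus sham by limma (none higher at an unadjusted p below 0.05), with a median log2 fold change of -1.26. Clec3b, which encodes the plasma protein tetranectin, fell from 296 ± 38.3 to 32.0 ± 8.83 TPM, and Scara5, a ferritin receptor gene, fell from 60.2 ± 8.21 to 7.21 ± 0.294 TPM (± SD, n = 3 per group; fold changes on the log2 scale -3.20 and -2.89). Against the intact group, Efhd1, a calcium-binding protein gene, was lower by -2.47. Mfap5, a microfibril gene of the same list, rose from a intact mean of 210 ± 45.1 TPM to a sham mean of 440 ± 2.82 TPM (± SD, n = 3 per group; fold change on the log2 scale 1.09, limma adjusted p = 0.00690) and was at 497 ± 73.0 TPM (SD, n = 3) in the pMx group. Its call in sham versus intact was lost without intact replicate 3. Tnxb and Pcolce2, also on the list, were not analysed here.

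Thy1, the sublining marker (gene identifier 24832), was higher in sham than in intact libraries and higher again in pMx libraries. It encodes CD90, a surface protein anchored by a lipid, which sets sublining fibroblasts apart from lining fibroblasts. It is also found on some cells of the T lineage and on nerve. Intact libraries held 147.1, 118.68 and 99.76 TPM, sham libraries 327.01, 401.83 and 249.98 TPM, and pMx libraries 1071.95, 965.51 and 1074.34 TPM. The 3 groups were fully apart and in the order intact, sham and pMx. The log2 fold change was 1.40 in sham versus intact (SE 0.18, limma adjusted p = 0.00497) and 1.69 in pMx versus sham (SE 0.18, limma adjusted p = 2.31e-04). The pMx mean was 8.51 times the intact mean. In a list of 7 T cell genes, 2 were called higher in sham versus intact and 0 in pMx versus sham by limma (1 higher and 1 lower at an unadjusted p below 0.05). Their summed level was 7.33 to 11.8 TPM in the intact, 22.0 to 23.9 TPM in the sham and 22.3 to 23.9 TPM in the pMx libraries.
The other sublining genes moved in both directions. Of 9, 1 was called higher and 4 lower in pMx versus sham (median log2 fold change -0.72). Sfrp1, a secreted Wnt antagonist gene, rose from 7.46 ± 0.686 to 21.6 ± 3.26 TPM (± SD, n = 3 per group; 1.41). Apod, which encodes the lipid carrier apolipoprotein D, fell from 63.1 ± 1.36 to 1.78 ± 0.757 TPM (± SD, n = 3 per group; -4.57), and Rspo3, an enhancer of Wnt signaling, from 3.00 ± 0.195 to 0.147 ± 0.00577 TPM (± SD, n = 3 per group; -1.80). The pMx level of Rspo3 is below 1 TPM, and with a pseudocount of 0.01 its fold change on the log2 scale was -4.26. In sham versus intact 0 of the 9 were called by limma, with 4 higher and 1 lower at an unadjusted p below 0.05. In pMx versus intact, Dkk3, another secreted Wnt modulator gene, was called higher with a log2 fold change of 1.73.

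The activation markers differed in direction, with Lrrc15 called higher, Fap called lower and Pdpn not called in pMx versus sham. Lrrc15 (gene identifier 246296) encodes a leucine-rich repeat membrane protein that TGF-beta induces in fibroblasts and that marks myofibroblast-like cells. Intact libraries held 1.05, 0.92 and 0.75 TPM, sham libraries 31.27, 43.85 and 19.65 TPM, and pMx libraries 245.89, 275.7 and 226.25 TPM. The groups were far apart, and the sham libraries varied more than the others relative to their mean. Lrrc15 rose from a sham mean of 31.6 ± 12.1 TPM to a pMx mean of 249 ± 24.9 TPM (± SD, n = 3 per group), a 7.89-fold increase with a log2 fold change of 3.01 (SE 0.24, limma adjusted p = 6.11e-05). Between intact and sham the mean level was 34.8-fold higher, given as a description. It stood as the lowest of the 10 markers in the intact group and the third highest in the pMx group.
Fap (gene identifier 192203) encodes a membrane serine protease closely related to Dpp4 that is widely used to mark activated fibroblasts. Intact libraries held 285.32, 316.26 and 265.72 TPM, sham libraries 251.39, 181.6 and 251.65 TPM, and pMx libraries 116.23, 117.83 and 99.65 TPM. Fap thus ran opposite to Lrrc15, with its highest values in unoperated synovium and its lowest in the regenerating tissue. It fell from a sham mean of 228 ± 40.4 TPM to a pMx mean of 111 ± 10.1 TPM (± SD, n = 3 per group), 2.05-fold lower by the means, with a log2 fold change of -1.02 (SE 0.14, limma adjusted p = 6.31e-04). This is close to the threshold, and without sham replicate 1, sham replicate 3 or pMx replicate 3 the fold change was -0.94 and the call was lost on size while the adjusted p was at most 0.00360. In sham versus intact the log2 fold change was -0.35 (95% confidence interval -0.66 to -0.04, limma adjusted p = 0.128), and in pMx versus intact -1.37 (limma adjusted p = 6.11e-05).
Pdpn (gene identifier 54320) encodes podoplanin, a mucin-like protein of lining and activated fibroblasts and of lymphatic endothelium. Intact libraries held 121.08, 98.29 and 103.44 TPM, sham libraries 192.47, 146.56 and 160.42 TPM, and pMx libraries 211.3, 235.55 and 188.73 TPM. All sham and pMx libraries were above all intact libraries, and the lowest pMx library lay within the sham range. The log2 fold change was 0.62 in sham versus intact (SE 0.13, limma adjusted p = 0.0188), 0.35 in pMx versus sham (95% confidence interval 0.06 to 0.64, limma adjusted p = 0.0581) and 0.97 in pMx versus intact (limma adjusted p = 2.73e-04), so none passed the fold-change threshold. In a list of 5 lymphatic endothelial genes, 3 were called lower in pMx versus sham and 0 higher by limma (none higher at an unadjusted p below 0.05). Prox1, a regulator of lymphatic identity, was at 0.06, 0.14 and 0 TPM in the pMx libraries. The summed level of the list was 208 to 259 TPM in the intact libraries, 275 to 347 TPM in the sham libraries and 20.4 to 40.3 TPM in the pMx libraries. Ccl21 made up most of this sum in the intact and sham libraries, at means of 188 and 278 TPM (21.0 TPM in pMx). In sham versus intact, limma called 0 of the 5 genes, and 0 were at an unadjusted p below 0.05. The part of lymphatic endothelium in the Pdpn values was not tested.
Of 11 further genes of activated fibroblasts, 9 were called higher and 1 lower in pMx versus sham, with a median log2 fold change of 1.46. The list was written with several of these rises known. Tnc, which encodes the matrix glycoprotein tenascin C, rose from 99.6 ± 32.5 to 755 ± 108 TPM, and Adam12, a membrane metalloprotease gene, rose from 18.9 ± 7.40 to 120 ± 2.00 TPM (± SD, n = 3 per group; fold changes on the log2 scale 2.96 and 2.69). The gene called lower was Acta2, the smooth muscle actin gene of myofibroblasts and of vessel walls, which fell from 1455 ± 200 to 564 ± 32.0 TPM (± SD, n = 3 per group; -1.36, limma adjusted p = 0.00101). In 8 mural cell genes, which belong to pericytes and smooth muscle of vessel walls, 1 was called lower and 0 higher by limma (1 higher and 3 lower at an unadjusted p below 0.05). The gene called lower was Myh11, the smooth muscle myosin gene, which fell from 246 ± 29.2 to 33.4 ± 6.70 TPM (± SD, n = 3 per group; -2.85, limma adjusted p = 5.20e-05). The sum of the list was 1817 to 2116 TPM in the intact, 1300 to 1523 TPM in the sham and 1192 to 1240 TPM in the pMx libraries. Rgs5 was the largest part of the sham and pMx sums, at means of 616 and 653 TPM. The part of vessel walls in the Acta2 difference was not tested. In sham versus intact, 4 of the 11 were called higher and 0 lower by limma (2 lower at an unadjusted p below 0.05), with the largest rises in Cthrc1, a collagen-associated secreted protein gene (2.74), and Adam12 (2.54).

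**Figure D3:**
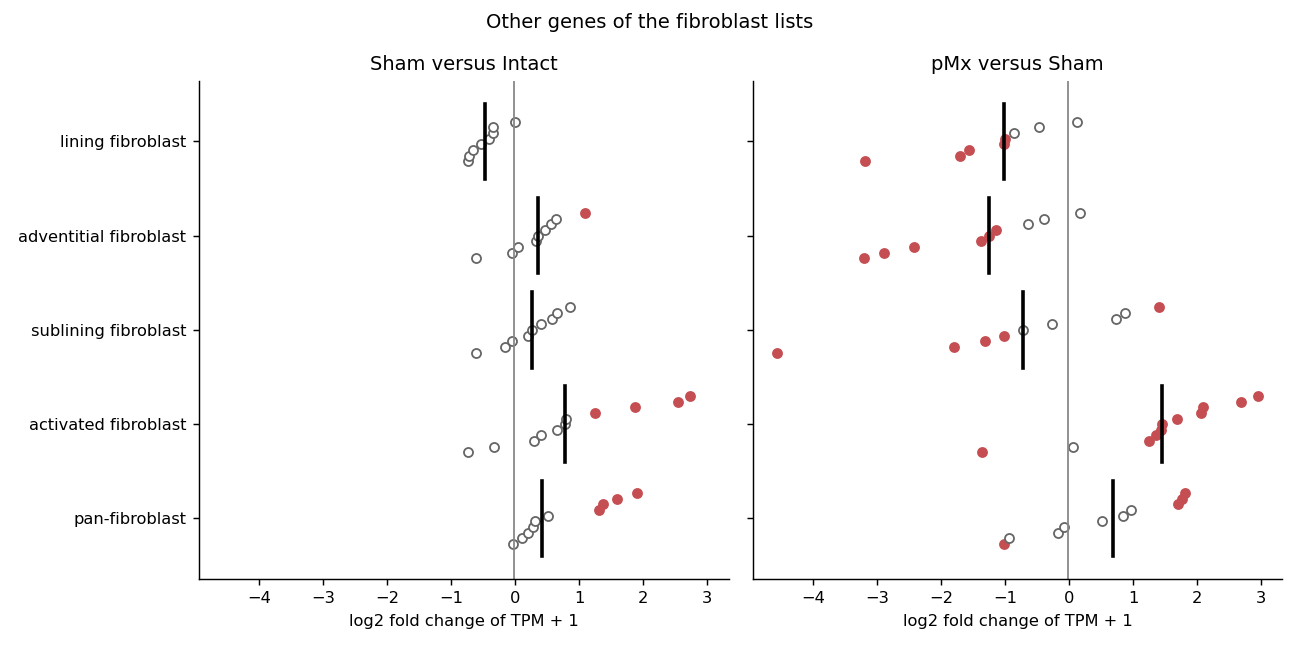
Log2 fold change of TPM + 1 of the other genes in 5 fibroblast lists (members left out) in sham versus intact and pMx versus sham, with filled points for called genes, a black bar at the median of the list and a gray line at the median of all genes tested. In pMx versus sham the medians were -1.01 for the lining list, -1.26 for the adventitial list, -0.72 for the sublining list, 1.46 for the activated list and 0.68 for the pan-fibroblast list. The lists were written with earlier results of these data known.

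Genes that most fibroblasts share also differed between the groups. Of the 10 genes of the pan-fibroblast list, 3 were called higher and 1 lower in pMx versus sham, with 6 higher and 2 lower at an unadjusted p below 0.05, and 4 were called higher and 0 lower in sham versus intact (none lower at an unadjusted p below 0.05, limma). The receptor genes used to recognize fibroblasts as a class were not called in pMx versus sham, with log2 fold changes of -0.08 for Pdgfra (limma adjusted p = 0.650) and 0.85 for Pdgfrb (limma adjusted p = 0.00825). Col1a1 and Col1a2, the chains of type I collagen, rose most in pMx versus sham (1.81 and 1.77), and Lum, a collagen-binding proteoglycan gene, rose most in sham versus intact (1.90). Fbln1, a matrix glycoprotein gene, was the one called lower (-1.02), and its call was lost without sham replicate 3, pMx replicate 1 or pMx replicate 3. The summed level of the 10 genes was 15327 to 21589 TPM in the intact libraries, 30285 to 34323 TPM in the sham libraries and 64431 to 67790 TPM in the pMx libraries. The collagen genes Col1a1, Col1a2 and Col3a1 made up most of the pMx sum, at means of 15669, 14118 and 17807 TPM. Dcn went the other way, from a sham mean of 4683 to a pMx mean of 2441 TPM, and was not called (-0.94, limma adjusted p = 9.94e-04). Rescaling the libraries by median-of-ratios changed no call of a member.

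Ratios of a pair of markers within a library do not depend on that scaling. The ratio of Fap to its relative Dpp4 was 124, 80.9 and 109 in the intact libraries, 30.9, 26.0 and 32.0 in the sham libraries and 135, 179 and 138 in the pMx libraries. The sham group was thus lowest, as Dpp4 was highest there, and the 3 ranges did not overlap. The ratio of Prg4 to Pi16 was 27.0, 22.5 and 30.8 in the intact libraries, 11.8, 10.7 and 9.39 in the sham libraries and 51.9, 44.3 and 33.6 in the pMx libraries, again lowest in the sham group and without overlap. With 3 libraries against 3 an exact permutation test cannot go below p = 0.1, so none was run.
A further pair of ratios was chosen after the values were seen. Lrrc15 to Fap went from at most 0.00368 in the intact libraries to between 0.0781 and 0.241 in the sham libraries and between 2.12 and 2.34 in the pMx libraries, so that Lrrc15 stood above Fap in the pMx libraries alone. Thy1 to Cd34 was 0.441 to 0.578, 0.974 to 1.52 and 5.88 to 6.59 in the same order.

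**Figure D4:**
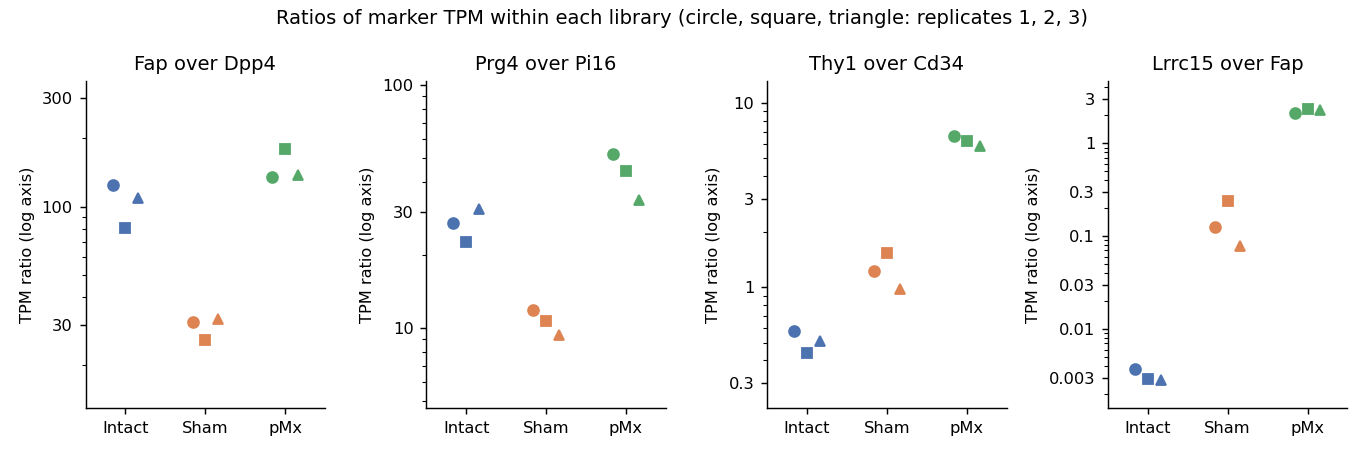
Ratio of the TPM of one marker to that of another (log axis) in each of the 9 libraries. Fap over Dpp4 and Prg4 over Pi16 were lowest in the sham group (26.0 to 32.0 and 9.39 to 11.8), whereas Thy1 over Cd34 and Lrrc15 over Fap were highest in the pMx group (5.88 to 6.59 and 2.12 to 2.34).

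Myoc (gene identifier 81523) encodes myocilin, a secreted glycoprotein best known from the trabecular meshwork of the eye and also made in other connective tissue and in peripheral nerve. Intact libraries held 642.79, 566.12 and 420.32 TPM, sham libraries 243.91, 153.14 and 298.46 TPM, and each pMx library 0.24 TPM. It was the second highest marker in the intact group and the lowest in the pMx group. On the log2(TPM + 1) scale pMx differed from sham by -7.50 and sham from intact by -1.26, and the sham mean was 966 times the pMx mean. The pMx level is near 0, so the size depends on the pseudocount, and with 0.01 in place of 1 it was -9.80. An identical value above 0 in the 3 pMx libraries was found for 46 genes, all below 1 TPM, and Myoc was the 1 gene of these at 0.24 TPM.
Markers of other cell types moved between the same groups. Of 10 adipocyte genes, 10 were called lower in pMx versus sham, and their summed level was 3646 to 9333 TPM in the intact, 5862 to 6920 TPM in the sham and 411 to 675 TPM in the pMx libraries. Adipoq, the adipocyte hormone gene, was at 3.2, 0.71 and 11.65 TPM in the pMx libraries. Of 8 Schwann cell genes, 6 were called lower, with sums of 590 to 895, 654 to 798 and 293 to 309 TPM in the same order. Of all the lists, 1 gene was at 0 in every library of a group, the chondrocyte gene Cnmd in the pMx group. No adipocyte or Schwann cell gene was at 0 in all 3 pMx libraries, and no gene of either list was called higher or lower in sham versus intact by limma (0 adipocyte and 4 Schwann cell genes at an unadjusted p below 0.05, the 4 lower). The part of fat and nerve in the values of Myoc and the adventitial markers was not tested.

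**Figure D5:**
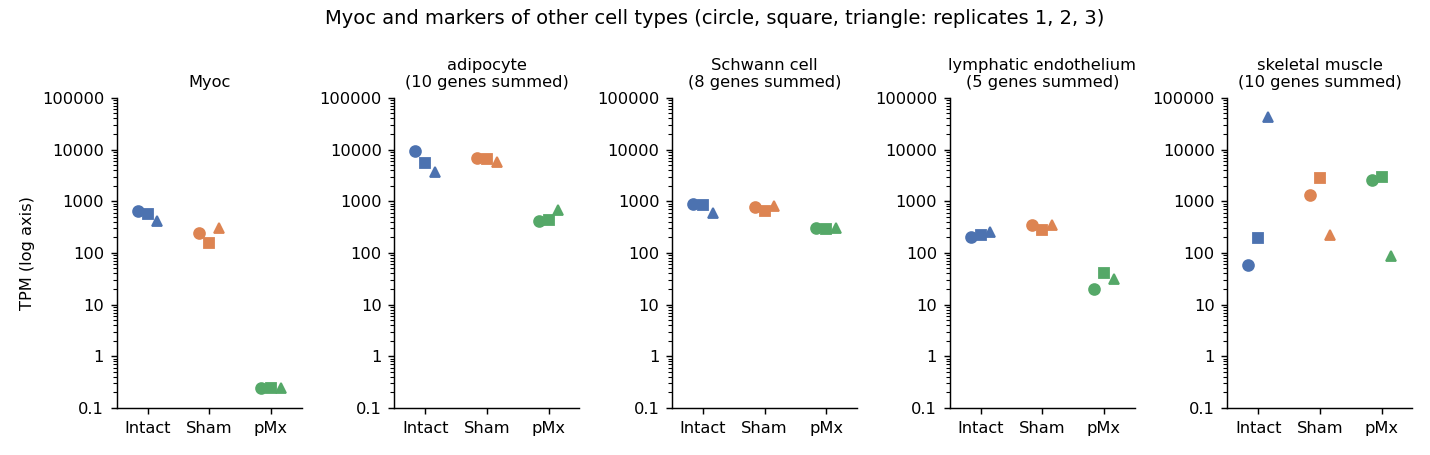
TPM of Myoc and summed TPM of marker genes of adipocytes, Schwann cells, lymphatic endothelium and skeletal muscle (log axis) in each library. Myoc was at 0.24 TPM in the 3 pMx libraries, where the adipocyte sum was 411 to 675 TPM and the Schwann cell sum 293 to 309 TPM, and muscle genes set intact replicate 3 apart at 42445 TPM.

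Of the remaining lists, macrophage genes had sums of 920 to 1475 TPM in the intact, 1570 to 1633 TPM in the sham and 1073 to 1493 TPM in the pMx libraries. In pMx versus sham, limma called 1 of 8 lower and 0 higher (1 higher, 2 lower at an unadjusted p below 0.05). In pMx versus intact, 2 were called higher and 1 lower. Cd68, which the study stained to assess macrophages, was at means of 79.2, 150 and 209 TPM in the intact, sham and pMx groups. Chondrocyte genes had sums of 440 to 1007, 754 to 838 and 1626 to 1861 TPM. In pMx versus sham, limma called 4 of 10 higher and 0 lower (6 higher, 2 lower at an unadjusted p below 0.05). Comp and Fmod, at means of 840 and 653 TPM, made up most of the pMx sum. Acan was at 208 TPM there, while the type II collagen gene Col2a1 was at 0.697 TPM. Skeletal muscle genes varied within every group, from 58.1 to 42445, 221 to 2846 and 85.7 to 2958 TPM, and 0 of 10 were called by limma in any comparison (0 at an unadjusted p below 0.05 in each).

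By mean level, the order in the intact group was Prg4, Myoc, Clic5, Fap, Cd34, Thy1, Pdpn, Pi16, Dpp4 and Lrrc15, in which Myoc and Clic5, Fap and Cd34, and Thy1, Pdpn and Pi16 had overlapping ranges with their neighbors. In the sham group it was Prg4, Thy1, Cd34, Clic5, Myoc, Fap, Pdpn, Pi16, Lrrc15 and Dpp4, and from Thy1 to Pdpn each range overlapped the next. In the pMx group it was Prg4, Thy1, Lrrc15, Pdpn, Cd34, Fap, Pi16, Clic5, Dpp4 and Myoc, and Lrrc15 and Pdpn overlapped. Thy1 thus stood at 122 ± 23.8 TPM in the intact group, less than the 289 ± 25.5 TPM of Fap, and at 1037 ± 62.2 TPM in the pMx group, above the 111 ± 10.1 TPM of Fap (± SD, n = 3 per group).

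The genes most like each marker were sought among 13191 genes with a mean of at least 1 TPM, by the root-mean-square difference of log2(TPM + 1) over the 9 libraries after each gene was centered on its own mean. This measure includes the differences between the groups, and nothing about shared control follows from it. Fap was followed most closely by Slc9a7, a sodium-proton exchanger gene, and Ddr2, a collagen receptor gene (0.05 and 0.09, against 0.60 for the spread of Fap itself). Ddr2 was at 142 ± 11.8, 116 ± 14.5 and 52.1 ± 3.73 TPM (± SD, n = 3 per group) in the intact, sham and pMx groups. Thy1 was nearest to Top2a, a topoisomerase of dividing cells, and Aldh1l2, a mitochondrial folate enzyme gene (0.12 each, spread 1.28). Top2a was at 2.08 ± 0.150, 7.26 ± 1.82 and 27.6 ± 1.88 TPM (± SD, n = 3 per group). Lrrc15 was nearest to the collagenase gene Mmp13 and the collagen prolyl hydroxylase gene P4ha3 (0.39 and 0.46, spread 2.90). Clic5 was nearest to Serpina1, which encodes the protease inhibitor alpha-1-antitrypsin, and Vit, a matrix protein gene (0.31 and 0.34, spread 2.22). Serpina1 was at 158 ± 30.3, 80.7 ± 35.9 and 5.90 ± 2.27 TPM (± SD, n = 3 per group).
For Pi16 the nearest genes were Tmeff2 and the lymphangiogenic factor gene Vegfd (0.15 and 0.17, spread 0.84), and for Dpp4 they were Dact2 and the mast cell receptor gene Fcer1a (0.26 and 0.30, spread 0.96). Cd34 was nearest to Rps4x and Lmo2 (0.08 each, spread 0.31), Pdpn to Gp6 and RT1-DMa (0.11 and 0.12, spread 0.43) and Prg4 to Otud7a and Plk2 (0.21 each, spread 0.49). For Myoc the carbonic anhydrase gene Ca3 was among the nearest and differed by 1.13, where the spread of Myoc was 3.88.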

How the data were processed

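RNA was sequenced by BGI from 9 libraries, 3 each of intact synovium, sham synovium and pMx regenerating tissue, after mRNA capture with oligo-dT beads. The authors deposited TPM values, computed in the Dr. Tom system and rounded to 2 decimals. HISAT2 2.0.4 and the build mRatBN7.2 are named in the submitters' processing notes, and the counting tool and annotation are not given in the sources used here. TPM keeps no read numbers, so depth is unknown, and with a fixed total a large rise in some genes lowers the rest. Groups and replicate numbers came from the sample labels. The labels call the libraries of a group biological replicates, and the study's quality table lists a separate RNA sample for each. Animals are not named, so p-values measure the spread between these libraries, which may not be the spread between rats.

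From the deposited TPM, log2(TPM + 1) of 16512 genes was fitted with limma 3.58.1 (R 4.3.3), using all 9 libraries together and 1 mean per group (eBayes with a mean-variance trend, Benjamini-Hochberg adjustment over all genes tested in each comparison). The calculation was tested on simulated data. The members and the gene lists (lining, adventitial, sublining, activated and pan-fibroblast genes, adipocytes, skeletal muscle, blood and lymphatic endothelium, mural cells, Schwann cells, macrophages, T cells and chondrocytes) were chosen from general knowledge with earlier results of these data known. No set test was run. The genes named are the 10 members, for each fibroblast list the 2 called genes with the largest rise and the 2 with the largest fall in each comparison, the 2 genes nearest in profile to each member, and the first 2 genes of the other lists. Hbegf, Cd55, Tnxb, Pcolce2, Pdgfra, Pdgfrb, Col3a1, Dcn, Myh11, Ccl21, Cd163, Comp, Fmod and Cnmd fall outside this rule and were named after their values were seen. Some genes of the other cell lists are not printed, and 1 gene that the rule names is not reported here. As alternatives, the pseudocount was set to 0.1 or 0.01, the filter was dropped or replaced by a mean of at least 1 TPM, and the libraries were scaled by median-of-ratios or quantile normalization. Further fits used just the 6 libraries compared, no variance trend, the replicate number as a block, the adjusted p alone, or 8 of the 9 libraries. Promoter sequences are from RefSeq (GRCr8), matched by gene identifier, and that table was used for sequence only. Figures were drawn with Matplotlib 3.10.9.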

Additional observations from a re-analysis of the deposited data

How the results depend on the processing

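In pMx versus sham, the 6 calls among the members were kept under the alternatives run, except that of Fap in 3 of the fits that left out a library. The count without a library ranged from 5 to 6, with 2 higher and 3 to 4 lower. Prg4, which was not called there, changed sign without pMx replicate 1 (-0.022), and ranged from -0.022 to 0.32 over the fits that left out a library. In sham versus intact the count of 2 rose to 5 (2 lower) with the adjusted p alone and to 4 (2 lower) with quantile normalization. The additions called lower were Prg4 and Clic5, whose fold changes lie at the threshold. With a pseudocount of 0.1, 1 member was called lower. Without a library, the count ranged from 2 to 3, with 2 higher and 0 to 1 lower. In pMx versus intact the count of 5 rose to 8 (2 higher) with the adjusted p alone, and without a library it ranged from 4 to 6, with 1 to 2 higher and 3 to 5 lower. The calls that differed when a library was left out were those of Prg4, Dpp4 and Pdpn.

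Whether libraries of the same replicate number were paired is not stated in the sources used here. With 3 libraries per group, the correlations below cannot settle it. The correlation of deviations from the group means was 0.03, 0.37 and 0.48 for replicates 1, 2 and 3 of pMx and sham, and it was at or below 0.00 for sham and intact and for pMx and intact. With the replicate block, the counts of members called were 6, 2 and 5 in pMx versus sham, sham versus intact and pMx versus intact, the same as without it, and the block changed no call of a single member. Over all genes, those called higher and lower were 837 and 1392 in pMx versus sham with a pseudocount of 0.1 and 817 and 1486 with 0.01, against 554 and 801. In sham versus intact they were 452 and 160 with 0.1 and 466 and 137 with 0.01, 177 and 48 in the fit on 6 libraries, and 202 and 46, 183 and 143, 175 and 53, and 145 and 46 without intact replicate 2, intact replicate 3, sham replicate 1 or sham replicate 2, against 235 and 88. In pMx versus intact they were 1521 and 2010 with 0.1 and 1568 and 2094 with 0.01, against 1057 and 1303. TPM values keep no depth, so levels near or below 1 TPM, such as those of Myoc and Dpp4 in the pMx group and Lrrc15 in the intact group, carry an unknown counting error.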
